A study of Mus musculus with 10 samples.

Results

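A set of 10 keratinocyte genes was followed through arrays of mouse gastrocnemius, the large calf muscle: the basal-layer genes Krt5, Krt14, Krt15 and Trp63, the genes of the upper epidermal layers Krt1, Krt10, Krt77, Krtdap and Dmkn, and the desmosome gene Dsp. These 10 are among the 19938 genes that the arrays measured with a probe set of 1 gene symbol. They had been picked because their signals were higher in F0 muscle than in the muscle of descendants, so that contrast is described here without a test. Each of the 10 genes had 1 probe set of its own symbol, and all 10 are reported, with no filter on low signal.

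The 10 arrays came from male C57BL/6 mice, and each array held pooled muscle RNA of 5 animals. The F0 EX pool came from F0 mice aged 28 weeks with voluntary exercise, and the F0 SED pool from sedentary F0 mice of the same age, 1 pool each. The 4 descendant groups, F1 EX, F1 SED, F2 EX, F2 SED, had 2 pools each, from descendants aged 8 weeks; none of these exercised, and EX or SED names what their F0 ancestors did. F0 mates shared the same exposure, and F2 mice came from matings between F1 littermates. Age and generation differ together between F0 and descendants, and their parts cannot be told apart. Own exercise differs from that of the descendants in F0 EX alone, as F0 SED and the descendants did not exercise. The series design text gives 10 males for each ancestry over the F1 and F2 generations, without saying whether that number is per generation, and the labels do not say whether the 2 pools of a group held different animals. The p-values therefore measure only the spread between pools, which may be technical. Signals are on the log2 scale, on which a difference of 1 doubles the signal.

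Keratins are filament proteins that pair as a type I and a type II partner. Basal keratinocytes of the epidermis carry the pair Krt5 and Krt14, and cells that leave the basal layer switch to Krt1 and Krt10 before they build the cornified envelope, the tough outer shell of the skin. Muscle fibres build their intermediate filaments from desmin and not from these keratins, and skin lies over the dissected muscle. Keratinocyte transcripts in a muscle extract could come from skin carried over, which was not tested here. How much skin, if any, a pool held was not measured. In pooled tissue, fewer cells of a type and less RNA per cell cannot be told apart.

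Several of the genes lie side by side in the mouse genome. By the gene order of RefSeq (GRCm38.p6), no protein-coding gene lies between Krt1 and Krt77 on chromosome 15, and 4 other keratin genes (Krt71, Krt72, Krt73 and Krt2) separate Krt1 from Krt5. Krt14 and Krt15 on chromosome 11 have 2 genes between them, Krt19 and Krt9, while Krt10 lies on the same chromosome with 51 genes between it and Krt15. Krtdap and Dmkn are direct neighbours on chromosome 7, Dsp is on chromosome 13 and Trp63 on chromosome 16. Keratins are close paralogs, and whether a keratin probe set also takes up signal of a related keratin was not tested.

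RefSeq promoter windows of 300 bases, from 250 bases before to 50 bases after the start of transcription, were at hand for 7 of the 10 genes, in 9 windows. Those of Krt5, Krt10, Krtdap and Dmkn are printed because these 4 genes had some of the widest gaps between F0 and descendants, and because both motifs that were searched occur among them. Capitals mark the motif TATAAA, which is the TATA box, or TGANTCA, the site of the AP-1 factors. Sequences run 5′ to 3′ along the gene's own strand.
Krt5 (chr15:101712856-101713155, minus strand): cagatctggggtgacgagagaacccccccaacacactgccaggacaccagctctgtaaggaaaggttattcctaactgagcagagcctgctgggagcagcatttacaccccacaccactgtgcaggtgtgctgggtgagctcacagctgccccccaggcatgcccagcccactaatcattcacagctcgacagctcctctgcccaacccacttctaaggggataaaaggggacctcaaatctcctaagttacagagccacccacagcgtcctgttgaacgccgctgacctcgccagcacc
Krt10 (chr11:99389315-99389614, minus strand): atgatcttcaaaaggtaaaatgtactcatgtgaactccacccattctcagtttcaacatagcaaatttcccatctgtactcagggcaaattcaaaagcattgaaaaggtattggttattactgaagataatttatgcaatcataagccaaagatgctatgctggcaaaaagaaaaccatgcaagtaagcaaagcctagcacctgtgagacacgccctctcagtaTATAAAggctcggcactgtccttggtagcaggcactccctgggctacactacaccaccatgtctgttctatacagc
Krtdap (chr7:30787655-30787954, plus strand): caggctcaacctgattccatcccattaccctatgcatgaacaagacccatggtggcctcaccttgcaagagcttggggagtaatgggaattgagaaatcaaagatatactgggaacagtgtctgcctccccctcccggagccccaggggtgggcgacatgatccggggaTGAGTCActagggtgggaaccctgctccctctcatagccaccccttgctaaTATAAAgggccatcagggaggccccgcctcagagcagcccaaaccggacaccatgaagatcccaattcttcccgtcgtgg
Dmkn, first of 3 windows (chr7:30763506-30763805, plus strand): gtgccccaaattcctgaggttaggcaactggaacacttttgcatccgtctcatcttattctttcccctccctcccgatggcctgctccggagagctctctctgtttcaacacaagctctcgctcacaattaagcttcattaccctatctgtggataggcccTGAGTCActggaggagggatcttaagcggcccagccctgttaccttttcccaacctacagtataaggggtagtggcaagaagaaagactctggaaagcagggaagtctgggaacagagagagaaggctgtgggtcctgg
Both strands were searched. TATAAA was found 26 bases before the start of Krt10 and 30 bases before that of Krtdap, among 7 genes with a window, while 13.6% of the 32841 mouse windows hold it. TGANTCA, which reads the same on both strands, was found 81 bases before the start of Krtdap and in all 3 Dmkn windows, at 89, 91 and 82 bases before the start, while 7.81% of all windows hold it. The first pair of Dmkn windows overlap and share one site. These matches are letters in a window, not measured sites.

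Of the 10 arrays, 1 F0 array and 1 descendant array stood apart in shape. The lower quartile of all probe sets was 2.476 for the F0 SED array and 2.484 for F1 EX pool 1, against 2.282 to 2.323 in the other 8 arrays. The median correlation with the other arrays was 0.9846 for F0 SED and 0.987 for F1 EX pool 1, against 0.9921 to 0.9949 for the rest. Array medians ran from 3.216 to 3.364, and no detection calls were used, so a signal near these medians is not shown to lie above background. The 12 skeletal muscle markers were among the brightest genes in every pool, with a lowest value of 11.12, which fits the tissue named by the labels. A gene was called where limma's adjusted p, by Benjamini-Hochberg over all genes, was under 0.05. Between F0 and descendants 267 of the 19938 genes were called, with 100 genes or 0.502% higher in F0 and 167 genes or 0.838% lower. With each array centred on its median these counts were 130 and 141.

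All 10 keratinocyte genes were higher in both F0 pools than in each of the 8 descendant pools, and the median difference between F0 and descendants was 1.29 on the log2 scale, against 0.004 over all genes. Both F0 pools stood above all descendant pools for 4.96% of all genes. The genes had been chosen by this same contrast, so that the count of 10 shows the choice and nothing more. The summed linear signal of the 10 was 205.2 in F0 EX and 350.6 in F0 SED, compared with 110.8 to 135.8 in the descendant pools. Trp63 made up a large part of the descendant sums. Its descendant mean was 38.4 on the linear scale, and the next highest was 14.9 for Krt10. The rule named neither the order of the 2 F0 pools nor that of the descendant pools, although a gene very high in 1 F0 pool is the more likely to be picked on the mean of both.

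Among the basal-layer genes, Krt5, the type II keratin of basal keratinocytes, had the widest gap. Its signal was 4.55 in F0 EX and 5.73 in F0 SED, compared with 2.45 and 3.87 in the F1 EX pools, 3.39 and 2.8 in the F1 SED pools, 3.0 and 3.0 in the F2 EX pools, and 3.13 and 2.95 in the F2 SED pools. F0 SED was the highest pool, F0 EX came next, and the nearest descendant was F1 EX pool 2. F0 EX was 2.78-fold and F0 SED 6.30-fold the descendant mean, which was 3.07 ± 0.42 (SD, n = 8); folds here and below are ratios to the mean of the log2 signals.

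Krt14, the type I partner of Krt5, had 3.95 in F0 EX and 4.0 in F0 SED, compared with 3.38, 3.71, 3.3, 3.57, 3.50, 3.46, 3.46 and 3.8 in the descendant pools, listed from F1 EX to F2 SED. The F0 pools lay close together, and F2 SED pool 2 came within reach of them. F0 EX was 1.34-fold and F0 SED 1.39-fold the descendant mean of 3.52 ± 0.16 (SD, n = 8). Krt15, another basal keratin that also marks the bulge of the hair follicle, had 3.40 in F0 EX and 3.91 in F0 SED, compared with a range of 2.73 to 3.20 with a median of 3.01 in the descendant pools. F0 SED was again the highest pool, and F0 EX lay above the top descendant pool.

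Trp63 encodes p63, the transcription factor that maintains the basal layer of stratified epithelia. Its signal was 6.01 in F0 EX and 5.85 in F0 SED, compared with 5.10, 5.29, 5.50, 5.20, 5.02, 5.39, 5.50 and 5.12 in the descendant pools from F1 EX to F2 SED. It was the one gene of the 10 with its highest value in F0 EX. The descendant mean was 5.26 ± 0.19 (SD, n = 8), and F0 EX was 1.68-fold and F0 SED 1.5-fold that mean. Trp63 was also the one gene of the 10 whose mean signal passed the 60th percentile of all genes.

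**Figure D1:**
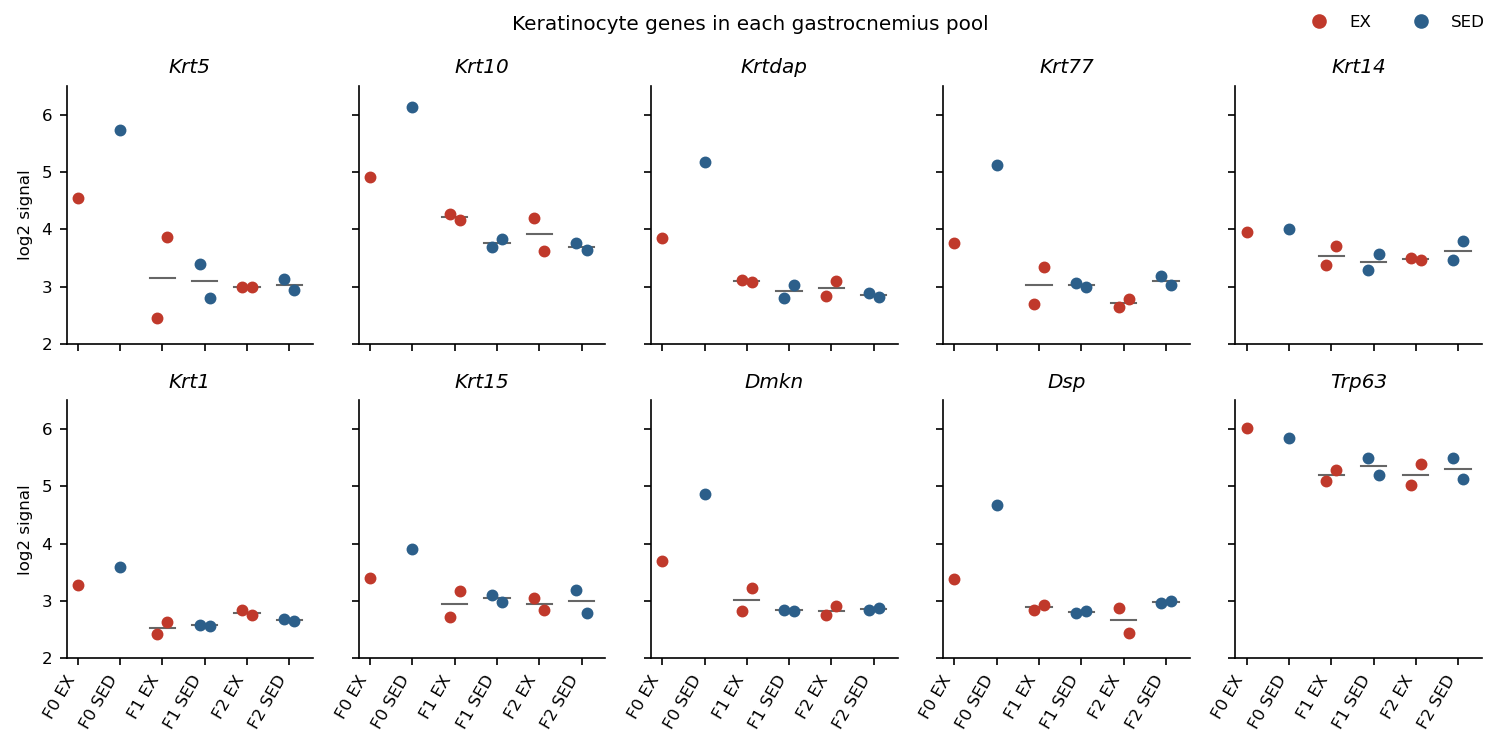
The log2 signal of each of the 10 keratinocyte genes is plotted for every pool, with 1 panel a gene and the groups F0 EX, F0 SED, F1 EX, F1 SED, F2 EX, F2 SED along the horizontal axis. Points are pools of 5 males, red for EX and blue for SED, and bars are means of the descendant groups of 2 pools; F0 SED is the top point in 9 panels and F0 EX in the panel of Trp63.

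Among the genes of the upper layers, Krt10, the type I keratin of the spinous layer, had 4.91 in F0 EX and 6.14 in F0 SED, compared with 4.27 and 4.17 in the F1 EX pools, 3.70 and 3.84 in the F1 SED pools, 4.20 and 3.63 in the F2 EX pools, and 3.76 and 3.64 in the F2 SED pools. F0 SED stood alone at the top, and F0 EX lay closer to the highest descendant pools than to F0 SED. F0 EX was 2.02-fold and F0 SED 4.73-fold the descendant mean of 3.90 ± 0.27 (SD, n = 8). Krt1, the type II partner of Krt10, had 3.28 in F0 EX and 3.60 in F0 SED, compared with a range of 2.42 to 2.84 with a median of 2.65 in the descendant pools. F0 EX was 1.55-fold and F0 SED 1.94-fold the descendant mean. Krt77, a type II keratin encoded next to Krt1, had 3.76 in F0 EX and 5.13 in F0 SED, compared with 2.64 to 3.35 with a median of 3.01 in the descendant pools. F0 EX was 1.73-fold and F0 SED 4.47-fold the descendant mean, and F0 SED again stood alone at the top.

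Krtdap and Dmkn encode small secreted proteins of differentiating keratinocytes. Krtdap had 3.85 in F0 EX and 5.18 in F0 SED, compared with 3.12 and 3.09 in the F1 EX pools, 2.81 and 3.03 in the F1 SED pools, 2.84 and 3.11 in the F2 EX pools, and 2.89 and 2.83 in the F2 SED pools. Its neighbour Dmkn (dermokine) had 3.70 in F0 EX and 4.86 in F0 SED, compared with 2.75 to 3.23 with a median of 2.85 in the descendant pools. For both genes the descendant pools lay in a narrow band, F0 EX stood clear of it and F0 SED stood further away. F0 EX was 1.84-fold the descendant mean for Krtdap and 1.75-fold for Dmkn, and F0 SED was 4.65-fold for Krtdap and 3.93-fold for Dmkn.

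Dsp encodes desmoplakin, which ties keratin filaments to desmosomes. It had 3.38 in F0 EX and 4.68 in F0 SED, compared with 2.85 and 2.93 in the F1 EX pools, 2.8 and 2.83 in the F1 SED pools, 2.88 and 2.45 in the F2 EX pools, and 2.97 and 3.0 in the F2 SED pools. F0 SED was far above the rest, and F0 EX lay above the top descendant pool. F0 EX was 1.46-fold and F0 SED 3.58-fold the descendant mean of 2.84 ± 0.17 (SD, n = 8).

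The exercised F0 pool was set against the sedentary F0 pool gene by gene. Of the 10 genes, 9 were lower in F0 EX than in F0 SED, and their median difference was -1.17 on the log2 scale, against -0.03 over all genes. A difference of at least 0.5 in this direction was found for 7 of them, and for 7.91% of all genes. With centring it was 6 of them and 5.52% of all genes, and with quantile normalization 6 of them and 7.42%, as Krt15 then differed by -0.44 and -0.43. A difference of at least 1 was found for 6 of them and for 0.451% of all genes. These 6 were Krt77 (-1.37), Krtdap (-1.34), Dsp (-1.29), Krt10 (-1.23), Krt5 (-1.18) and Dmkn (-1.16). For these 6 genes the signal in F0 SED was 2.24-fold to 2.58-fold that in F0 EX. Krt15 differed by -0.51 and Krt1 by -0.32, while Trp63 was 0.16 higher in F0 EX. Krt14 differed by -0.05, which became 0.02 with each array centred on its median. Each side was 1 pool, so the differences have no replicate check and no p-value. The size of a difference between a pair of pools of the same kind was not known for F0. The genes were also picked on their F0 signals, which favours a gene very high in 1 F0 pool. The shares of all genes, which were not picked so, are therefore no test of these differences.

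On a linear scale, the excess of each gene over the descendant mean was compared between the F0 pools. For 7 of the 10 genes the excess in F0 EX was 0.178 to 0.369 of that in F0 SED, with Dsp at 0.178, Krt77 at 0.210, Krtdap at 0.230, Dmkn at 0.257, Krt10 at 0.273, Krt5 at 0.336 and Krt15 at 0.369. These genes belong to the basal layer, the upper layers and the desmosome. The ratio was 0.584 for Krt1, an upper-layer gene, and 0.879 for Krt14 and 1.35 for Trp63, both basal-layer genes. Krt1 and Krt14 thus had higher ratios than their partners Krt10 and Krt5. The ratio takes the descendant mean as each gene's floor, and part of a low array signal may be background that the ratio cannot show. The genes were picked on their excess over the descendants, which a very high signal in 1 F0 pool can carry. The ratios are therefore a description only.

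Further epidermal genes were read from 4 lists of 71 measured genes, none of them among the 10. In the fit of both F0 pools 2 of the 71 were called higher in F0 and 0 lower, against 0.502% and 0.838% of all genes. An unadjusted p under 0.05 was found for 16 of the 71 and for 2771 of all 19938 genes. The median difference of the 71 was 0.13, and 46 estimates were above 0. With F0 SED as the one F0 pool, 14 of the 71 were called higher, where 3.17% of all genes were. F0 EX was above all 8 descendant pools for 10 of the 71, against 15.9% of all genes, and F0 SED for 34 of the 71, against 21.6%. The fits share their descendant pools, and a lone F0 pool is assumed to vary like them.

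Cornified envelope and barrier genes made up 9 of the 14 called with F0 SED alone. F0 SED was above all 8 descendant pools for 17 of the 24 measured genes, against 21.6% of all genes. F0 EX was above them for 3 of the 24, against 15.9% of all genes, a share that was 23.9% with centring. Without F1 EX pool 1, the descendant array that stood apart, F0 SED was above the rest for 19 of the 24 and for 29.3% of all genes. The list's summed linear signal was 199.1 in F0 EX and 282.8 in F0 SED, compared with 180.9 to 204.2 in the descendant pools. F0 EX lay inside the descendant range and F0 SED above it.

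Flg2 (filaggrin 2, a granular-layer protein) was the gene of this list called in the fit of both F0 pools. It had 2.67 in F0 EX and 2.84 in F0 SED, compared with 1.76 to 2.24 with a median of 2.10 in the descendant pools, a difference of 0.71 (SE 0.130, limma adjusted p = 0.0181). With F0 EX as the one F0 pool the estimate was 0.53 and did not pass (limma adjusted p = 0.318). With array weights 0 of the 71 epidermal genes were called higher, and 0 of the 25 and of the 5 left by the filters on low signal at the 40th and 60th percentiles. Of all genes, 22 of 19938, 95 of 11963 and 93 of 7975 were called higher in these settings. Lor (loricrin, the main protein of the cornified envelope) had 3.20 in F0 EX and 4.22 in F0 SED, compared with 2.35 to 3.22 in the descendant pools. F0 EX lay inside the descendant range for Lor. Its difference of 0.98 missed the threshold (SE 0.229, limma adjusted p = 0.0626), and with F0 SED alone it was 1.49 (limma adjusted p = 0.0106). Hrnr (hornerin) had 3.26 in F0 EX and 4.12 in F0 SED, compared with 2.5 to 3.32 in the descendant pools, and passed only with F0 SED alone (1.18, limma adjusted p = 0.0243, against 0.0946 with both F0 pools). Ivl (involucrin), an early envelope protein, had 2.21 in F0 EX and 2.54 in F0 SED, inside or below the descendant range of 2.30 to 2.63.

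Chosen after their values were seen, Asprv1, Klk5, Klk7, Sbsn, Cnfn and Aloxe3 were also called with F0 SED alone, by 0.54 to 0.99 on the log2 scale. Asprv1, a protease that processes filaggrin, had 3.22 in F0 EX and 4.09 in F0 SED, compared with 2.92 to 3.23 in the descendant pools. F0 EX lay inside the descendant range for Asprv1, and F0 SED above it.

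Of the 16 measured desmosome and junction genes, F0 SED was above all descendant pools for 9, against 21.6% of all genes, and F0 EX for 3, against 15.9% of all genes. Dsc3 (desmocollin 3, a basal-layer desmosomal cadherin) was called: it had 2.98 in F0 EX and 3.36 in F0 SED, compared with 2.23 to 2.70 with a median of 2.38 in the descendant pools, a difference of 0.76 (SE 0.112, limma adjusted p = 0.00528). With F0 EX as the one F0 pool the estimate was 0.66 and did not pass (limma adjusted p = 0.12). Dsg1b (a desmoglein 1 of the upper layers) had 2.43 in F0 EX and 3.92 in F0 SED, compared with 2.11 to 2.57 in the descendant pools. F0 EX was inside the descendant range and F0 SED far outside it, and the estimate was 1.62 with F0 SED alone (limma adjusted p = 0.00235) and 0.85 with both F0 pools (limma adjusted p = 0.152). Dsg2, Dsg3 and Dsc2 had differences of -0.20, 0.13 and -0.13, and none passed. Pkp1, chosen after its values were seen, was called with F0 SED alone (0.69, limma adjusted p = 0.033).

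The basal-layer list and the further keratins were read in the same way. F0 SED was above all descendant pools for 6 of the 19 measured basal genes and regulators and for 2 of the 12 further keratins, against 21.6% of all genes. Of either list 0 were called by limma with both F0 pools. An unadjusted p under 0.05 was found there for 2 of the 19, 1 of the 12 and 2771 of all 19938 genes. Col17a1, the hemidesmosomal collagen XVII, had 3.46 in F0 EX and 4.04 in F0 SED, compared with 3.29 to 3.51 in the descendant pools, and was called with F0 SED alone (0.56, limma adjusted p = 0.028). The integrin genes Itgb4 and Itga6 and the laminin gene Lamb3 had differences of 0.10, -0.17 and 0.00. Krt2, an upper-layer keratin of thick and hairless mouse skin, had 2.71 in F0 EX and 3.22 in F0 SED, compared with 2.19 to 2.58 in the descendant pools. It missed the threshold with both F0 pools (0.51, limma adjusted p = 0.0622) and passed with F0 SED alone (0.68, limma adjusted p = 0.0233) and without F1 EX pool 1 (0.50, limma adjusted p = 0.0461). The wound keratins Krt6a, Krt6b and Krt16 had differences of 0.26, -0.19 and -0.10, and none passed.

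**Figure D2:**
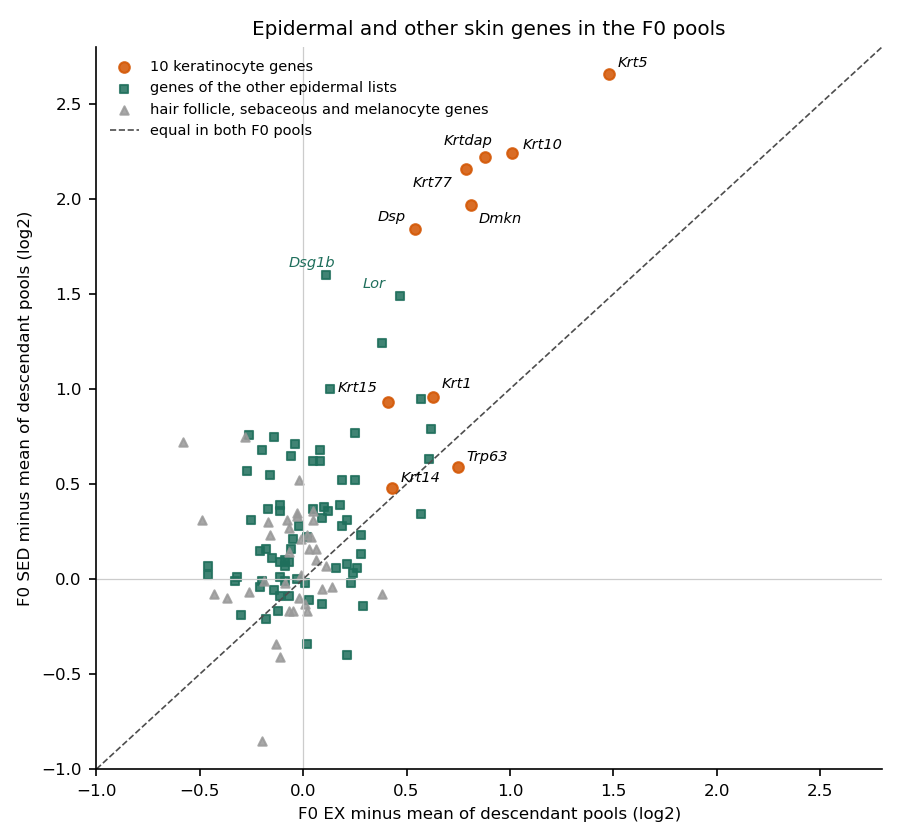
Each point is a gene, with the difference between F0 EX and the mean of the 8 descendant pools along the horizontal axis and that between F0 SED and the same mean up the vertical axis, both in log2. Circles are the 10 keratinocyte genes, squares the 71 genes of the other epidermal lists and triangles hair follicle, sebaceous gland and melanocyte genes, and the dashed line marks equal differences; 9 circles lie above the line, with Krt5 at 1.48 and 2.66.

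Other cell types of skin were read from 3 lists. Of 22 measured hair follicle genes, 7 sebaceous gland genes and 8 melanocyte genes, 0 were called by limma in F0 against descendants. Of these genes, 1 had an unadjusted p under 0.05, as had 2771 of all 19938 genes. With F0 SED alone 1 was called, the inner root sheath keratin Krt71 (0.80, limma adjusted p = 0.0186), which was chosen after its values were seen; 3.17% of all genes were called higher in that fit. F0 SED was above all descendant pools for 7, 1 and 1 of these genes, against 21.6% of all genes, and F0 EX for 0, 1 and 0. The summed linear signal of the hair follicle list was 189.5 in F0 EX and 254.5 in F0 SED, compared with 199.9 to 240.0 in the descendant pools. That of the sebaceous list was 87.0 in F0 EX and 81.5 in F0 SED, compared with 80.1 to 113.0 in the descendant pools, and that of the melanocyte list 50.1 in F0 EX and 54.6 in F0 SED, compared with 48.5 to 62.9. The hair follicle sum of F0 SED lay above the descendant range and that of F0 EX below it, while the other sums lay inside it. Much of the gap between the F0 sums came from the hair keratin Krt33b, chosen after its values were seen, which had 4.8 in F0 EX and 6.1 in F0 SED, compared with 4.89 to 5.75 in the descendant pools, and which was not called with F0 SED alone (0.56, limma adjusted p = 0.239).

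The hair follicle keratins Krt25, Krt26, Krt27 and Krt28 had differences between F0 and descendants of 0.16, 0.04, 0.07 and 0.08. Among sebaceous genes, Mc5r had -0.24, Awat1 0.15, Awat2 0.12 and Scd3 0.20, and among the pigment genes Pmel had 0.12, Tyr -0.10, Tyrp1 0.10 and Dct -0.17. None of these passed. The simple epithelium list, which marks glands and ducts, had 0 of 6 genes called by limma and 0 with an unadjusted p under 0.05, with Krt7 at 0.04, Krt8 at 0.20, Krt18 at -0.11 and Krt19 at -0.09.

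Adipocyte genes, which could come with skin or with fat around the muscle, were read beside the keratinocyte genes. None of 7 measured genes was called by limma, with Adipoq at 0.37, Plin1 at 0.13, Plin4 at -0.22 and Cidec at 0.61. Of the 7, 2 had an unadjusted p under 0.05, as had 2771 of all 19938 genes. The summed signal of the 7 was 482.1 in F0 EX and 412.5 in F0 SED, inside the descendant range of 323.0 to 602.5. The erythrocyte list had 2 of its 6 genes measured, Alas2 (0.07) and Slc4a1 (-0.08), and neither was called or had an unadjusted p under 0.05. No gene of any list was at 0, since array signals have no true 0, and the lowest log2 signal among all listed genes was 1.65 (Krt6b in F0 EX).

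On the deposited scale, muscle fibre genes were lowest on average in F0 SED. F0 SED was above all 8 descendant pools for 1 of the 12 muscle genes, against 21.6% of all genes. With quantile normalization it was 5 of the 12, against 22.5% of all genes, so the order depended on array scale. Whether the low average of F0 SED holds on that scale was not tested. The mean deviation of the 12 muscle genes from the descendant mean was -0.01 in F0 EX and -0.24 in F0 SED, compared with -0.17 to 0.08 in the descendant pools. Actin Acta1 had 13.48 in F0 EX and 13.13 in F0 SED, and creatine kinase Ckm had 13.18 in F0 EX and 12.75 in F0 SED. Of the fast myosins, Myh4 had 13.14 in F0 EX and 12.73 in F0 SED, and Myh1 had 11.85 in F0 EX and 11.12 in F0 SED. These 4 genes were higher in F0 EX than in F0 SED. None of them passed in F0 against descendants, with differences of -0.19, -0.27, -0.15 and -0.21. Of the 12 muscle genes, 3 had an unadjusted p under 0.05, as had 2771 of all 19938 genes. With F0 SED alone, where 4.13% of all genes were called lower and 3.17% higher, Myh1 was called lower (-0.58, limma adjusted p = 0.0438), as was Pvalb (-0.49, limma adjusted p = 0.0485), and Mb, the oxygen store of muscle, was called higher (0.62, limma adjusted p = 0.033); Pvalb and Mb were chosen after their values were seen. The summed signal of the list was 81878 in F0 EX and 68998 in F0 SED, compared with 72660 to 87084 in the descendant pools. On the deposited scale F0 SED was thus the pool with the highest sum of keratinocyte signals and the lowest sum of muscle markers. The part of either in the other was not tested. F1 EX pool 1, the other array that stood apart in shape, had mean deviations of -0.17 for the muscle genes and -0.12 for the keratinocyte genes, and Krt10 and Krtdap were at their highest descendant values there.

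**Figure D3:**
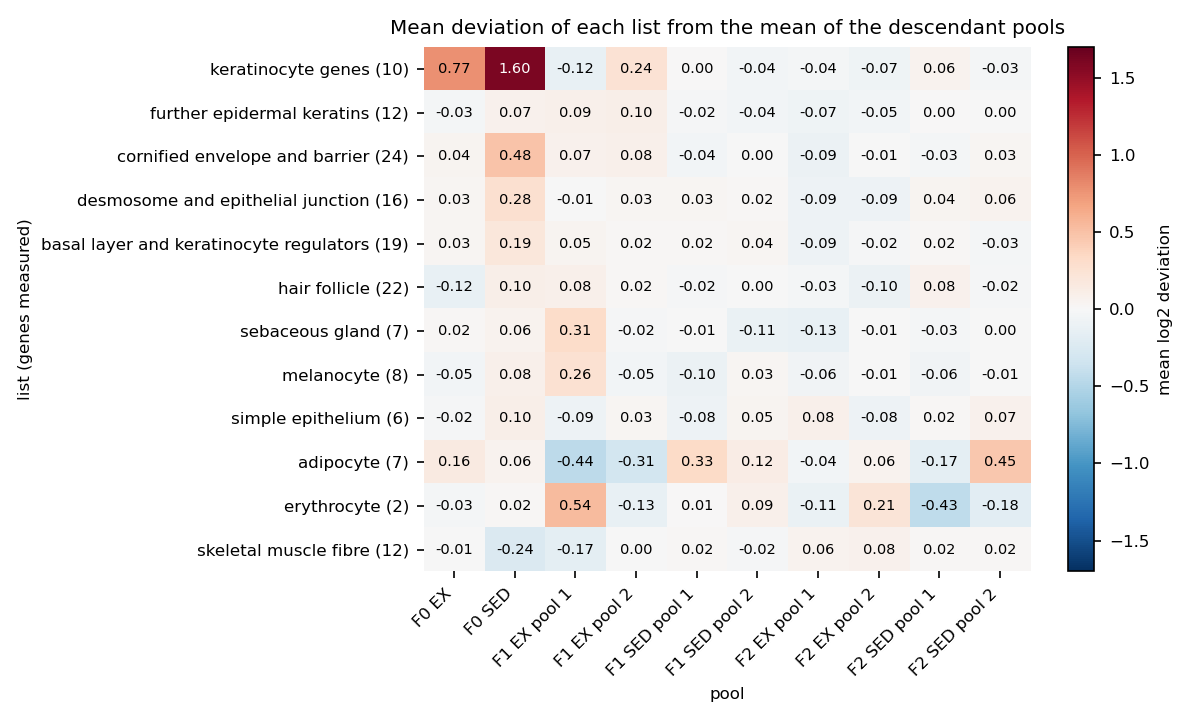
Rows are the 10 keratinocyte genes and 11 other lists, columns are the 10 pools, and each cell gives the mean log2 deviation of the list's genes from their mean over the 8 descendant pools, in red above 0 and blue below 0. The keratinocyte genes had 0.77 in F0 EX and 1.60 in F0 SED, and the cornified envelope list had 0.04 and 0.48.

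Among the descendants, the design sets EX ancestry against SED ancestry in each generation, and the pools were first read one by one. F1 EX pool 2 had 9 of the 10 genes above their own descendant medians, with the highest descendant value of Krt5 (3.87), Krt77 (3.35) and Dmkn (3.23), and its mean deviation was 0.24. The other 7 pools had 2 to 6 genes above their medians and mean deviations between -0.12 and 0.06. In F1 EX pool 2 the cornified envelope gene Lor, 1 of 24 measured on its list, was also at its highest descendant value, 3.22. The list as a whole did not set this pool apart. Its mean deviation was 0.07 in F1 EX pool 1 and 0.08 in F1 EX pool 2. F1 EX pool 1, its partner, had 2 of the 10 genes above their medians and the lowest descendant value of Krt5 (2.45), Krt1 (2.42) and Krt15 (2.73), while Krt10 (4.27) and Krtdap (3.12) were at their highest there. The 2 pools of F1 EX lay at opposite ends of the descendant range for Krt5.

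None of the 10 genes was called in any comparison among descendants, where limma called 0 of all genes in each of the 5 fits, a share of 0.0%. EX ancestry was set against SED ancestry in F1 first. The 10 estimates ran from -0.16 to 0.45, with a median of 0.07, against 0.03 over all genes. Krt10 had the smallest p: its signals were 4.27 and 4.17 in F1 EX and 3.70 and 3.84 in F1 SED, a difference of 0.45 (SE 0.178, 95% interval 0.06 to 0.85, limma unadjusted p = 0.0292, adjusted p = 0.767). The F1 EX and F1 SED pools did not overlap for Krt10, Krtdap and Dsp, 3 of the 10, and they did not overlap for 32.2% of all genes. Krt5 had the widest interval, from -0.74 to 0.87 around 0.07, and its EX pools differed from each other more than the group means did. Unadjusted p-values under 0.05 were found for 1186 genes in this fit. Without F1 EX pool 1 the median of the 10 genes was 0.23 and without F1 EX pool 2 it was -0.11. Without F1 EX pool 1, 0 of the 10 and 0.0% of all genes were called; without F1 EX pool 2, 0 of the 10 and 7.12% of all genes (1419) were called, on the assumption that the lone F1 EX pool varied like the other groups.

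In F2 the estimates ran from -0.40 to 0.22, with a median of -0.04, against 0.009 over all genes. Dsp had 2.88 and 2.45 in F2 EX and 2.97 and 3.0 in F2 SED, a difference of -0.32 (SE 0.151, 95% interval -0.66 to 0.01, limma adjusted p = 1). Krt77 had 2.64 and 2.78 in F2 EX and 3.19 and 3.03 in F2 SED, a difference of -0.40 (SE 0.193, 95% interval -0.83 to 0.03, limma adjusted p = 1). The pools of these 2 genes and of Krt1 did not overlap, 3 of the 10, against 39.3% of all genes. The difference between the F2 and the F1 ancestry effect ran from -0.40 to 0.17 over the 10 genes, and no adjusted p of theirs was under 0.866. Genes with an unadjusted p under 0.05 numbered 902 in F2 and 1010 for the difference.

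Over both generations, 4 EX pools were compared with 4 SED pools. Krt10 averaged 4.07 ± 0.30 in EX and 3.73 ± 0.09 in SED (SD, n = 4 each), a difference of 0.33 (SE 0.126, 95% interval 0.06 to 0.61, limma unadjusted p = 0.0219, adjusted p = 0.898). Krt77 averaged 2.87 ± 0.33 in EX and 3.07 ± 0.09 in SED (SD, n = 4 each), a difference of -0.20 (95% interval -0.52 to 0.11). The 10 estimates ran from -0.20 to 0.33, and EX and SED pools overlapped for every one of the 10, while they did not overlap for 3.09% of all genes. When F2 was set against F1, at equal age, Krt1 had the smallest p, with 2.74 ± 0.08 for the F2 pools and 2.55 ± 0.10 for the F1 pools (SD, n = 4 each) and a difference of 0.19 (95% interval -0.01 to 0.38, limma adjusted p = 0.928). Apart from the difference of the ancestry effects, where 8 of 10 intervals did, all 95% intervals of the 10 genes lay within 1 of 0 in these comparisons. Unadjusted p-values under 0.05 were found for 968 genes with ancestry and for 823 genes between F2 and F1.

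**Figure D4:**
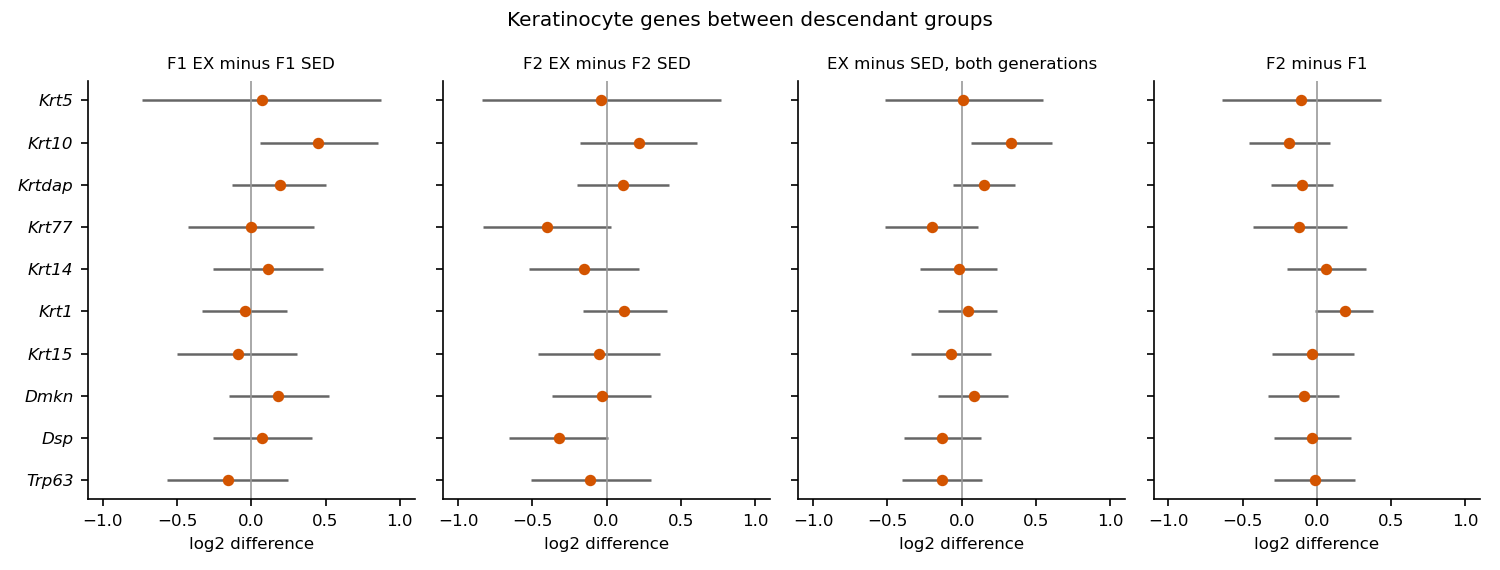
Points are limma estimates of the log2 difference for each keratinocyte gene in 4 comparisons among the 8 descendant pools, and lines are 95% confidence intervals. Krt10 in F1 (0.45, from 0.06 to 0.85) and over both generations (0.33, from 0.06 to 0.61) has an interval above 0 before adjustment, and no gene passed after it.

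The genes whose signals ran most like the mean of the 10 were ranked by Pearson's r. Over the 8 descendant pools, in which 19674 genes varied enough to be ranked, they were Tent5b (0.969), Trim62 (0.96), Scnn1g (0.958), Olfr1104 (0.955), Zp3 (0.937), Gabra2 (0.927), Shpk (0.925), Abcc6 (0.918), Lgalsl (0.909) and Noto (0.907). None of these was on an epidermal or other list. Over all 10 pools, in which 2389 genes were ranked, they were Olfr834 (0.978), Gpr75 (0.961), Atp13a5 (0.946), Lor (0.942), Tead4 (0.941), Lrrc52 (0.935), Rrs1 (0.931), Slc15a5 (0.924), Zbtb25 (0.923) and Igfn1 (0.923), with Lor alone on a list. The second ranking rests on the 2 F0 pools, which stand far from the rest, and both come from few arrays with 1 value each, so that they are given as descriptions with no p.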

How the data were processed

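Per the labels' protocols, total RNA of gastrocnemius from 5 male C57BL/6 mice was brought to 98 ng/µl before pooling, 1 pool an array over 10 arrays, and biotin-labelled sense-strand cDNA was hybridised to Affymetrix whole-transcript arrays. The log2 signals of the probe sets were used as the authors deposited them, made with Affymetrix Expression Console per the submitters' processing notes. The log2 scale was read from the range of the values, 0.966 to 14.2. Not given in the sources used here are its version, how background was corrected, how arrays were normalized and probes summarized, and the genome build. Array precision is limited by the number of arrays.

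Of 35557 probe sets, 21789 had 1 gene symbol in the platform annotation, 1621 had several and 12147 none. The probe set with the highest mean stood for each of 19938 genes, 999 of which had more than 1. No filter on low signal was applied. The lmFit and eBayes functions of limma 3.58.1 (R 4.3.3), tested on simulated data, compared groups of pools, with Benjamini-Hochberg adjustment over all genes and a threshold of 0.05. Descendants were fitted as 4 group means or with generation and ancestry as terms, and F0 against descendants with both terms over all 10 pools. The 2 F0 groups, of 1 pool each, were compared by size, with 0.5 on the log2 scale as the mark.

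The 10 genes, the 11 other lists (further epidermal keratins, cornified envelope, desmosome, basal layer, hair follicle, sebaceous gland, melanocyte, simple epithelium, adipocyte, erythrocyte and skeletal muscle fibre) and the tests were chosen with earlier results of these data known. The text names all 10 genes, of each other list the genes called in F0 against descendants and the first 4 measured where fewer than 4 were called, and the 10 genes most like the mean of the 10 keratinocyte genes. Likeness was ranked among genes whose SD was at least 0.5 times that of this mean. Alternatives changed the filter, array scale, probe set rule, eBayes settings, array weights, the block and the pools left out.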

Additional observations from a re-analysis of the deposited data

Results flagged for a closer look

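For 4 of the 10 keratinocyte genes, the order of EX and SED in F0 was the opposite of that in a descendant generation whose EX and SED pools did not overlap. EX and SED pools did not overlap for 32.2% of all genes in F1 and 39.3% in F2, and for 3 of the 10 in each generation. In each case the difference between the generations was not tested, since F0 had 1 pool of each kind. Krt10, the spinous-layer keratin, was 0.45 higher in F1 EX than in F1 SED, where F0 EX was 1.23 lower than F0 SED (a difference of -1.23). Krtdap, of differentiating keratinocytes, was 0.19 higher in F1 EX than in F1 SED, with -1.34 in F0. Dsp, desmoplakin, was 0.07 higher in F1 EX than in F1 SED, with -1.29 in F0, while in F2 its pools did not overlap either and it differed by -0.32, the direction of F0. Krt77 in F2, at -0.40 with pools that did not overlap, also ran in the direction of F0 (-1.37). Krt1, the partner of Krt10, was 0.12 higher in F2 EX than in F2 SED, with -0.32 in F0. All these descendant differences were smaller in size than those in F0, and none of them passed limma's test over all genes.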

How the results depend on the processing

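None of the 10 keratinocyte genes was called among descendants under any of the 19 alternatives that was run on them. Leaving out an F0 pool was not run there, and the F0 pair was included for ancestry over both generations only. The filter at the 60th percentile left 1 of the 10 to test. Of 451 recomputed values, 407 kept their side of the threshold or moved by less than the spread between pools. No called value changed direction, while 72 of 745 member estimates that were never called had the opposite sign. With the replicate block the median of the 10 genes stayed at 0.07 in F1, -0.04 in F2, -0.16 for their difference, 0.00 over both generations and -0.06 between F2 and F1, with 0 genes called. Deviations of same-numbered pools from their group means had correlations of -0.073 to 0.039. With 1 such deviation per group, these values cannot show whether same-numbered pools shared a batch, handling or animals. Leaving out 1 pool in turn moved the genes called in F0 against descendants, 267 with all pools, to between 67 (without F0 SED) and 1456 (without F0 EX), with 498 without F1 EX pool 1, 158 without F2 EX pool 2 and 166 without F2 SED pool 2. The epidermal genes called higher then numbered 0 to 14, and the median of the 10 genes ran from 0.79 without F0 SED to 1.89 without F0 EX. In F1, the genes called ran from 0 to 1419 (without F1 EX pool 2), with 9 without F1 SED pool 1, and the median of the 10 from -0.11 to 0.23. For the difference of ancestry effects these were 0 to 156 genes, with 5 without F1 SED pool 1, and -0.30 to -0.04. The epidermal genes called higher in F0 numbered 0 with the filter at the 40th percentile, 0 with that at the 60th, 0 with array weights and 4 with centring, while array weights called 61 genes in all. The 40th percentile left 6 of the 10 keratinocyte genes and the 60th left Trp63. The filters took the mean over all 10 pools, F0 among them. Krt5, Krtdap and Krt77, with descendant means of 3.07, 2.97 and 2.97, passed the 40th percentile of 3.235 only through their F0 signals. Between F2 and F1, array weights called 1 gene, and so did the trend and robust settings (1 gene). The median of the 10 genes over both generations was -0.15 with the F0 pair included. Chosen after seeing the data, the count of cornified envelope genes with F0 SED above all descendants was 17 with centring, 16 with quantile normalization and 19 without F1 EX pool 1. Signals near the array median may not lie above background, and the cause of these shifts was not tested.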
